A study of Mus musculus with 18 samples.

Results

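Brain from old control mice was set against kidney and gastrocnemius of old control mice, to describe which genes are enriched in the old mouse brain and which are missing from it. The comparison took the 9 old control libraries of the 18 in the series by their labels: 3 of brain, 3 of kidney and 3 of gastrocnemius, a muscle of the calf. All 9 came from wild-type (WT) male C57BL/6 mice that were kept on a normal diet, were 18 months old at the start, received normal saline by gavage and were killed at 23 months. No library of mice given SeMSNs, the selenium preparation under study, was used. Polyadenylated RNA was sequenced. The labels do not say which piece of brain was taken or whether libraries of a tissue came from separate mice, and a p-value here reflects only how much the libraries differ among themselves, which may be technical. No young mice enter the comparison, so age itself was not tested.

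The brain differs from other organs in its cell types. Neurons signal through neurotransmitters and peptides released from vesicles, oligodendrocytes wrap axons in myelin, astrocytes take up transmitter and supply metabolites, and microglia are the resident macrophages. Kidney tubules and skeletal muscle burn fatty acids heavily, whereas the brain runs mainly on glucose. Along the body axis, Hox genes are on in tissues that arise behind the forebrain and midbrain.

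The brain libraries held 17504652 to 18002018 counts in genes, the kidney libraries 18839904 to 22146406 and the gastrocnemius libraries 19307192 to 20758114. Genes of the mitochondrial genome took 12.5% ± 0.621 of brain counts, 27.6% ± 1.61 of kidney counts and 24.2% ± 2.05 of gastrocnemius counts (SD, n = 3 each). The 10 most abundant nuclear genes took 3.16% ± 0.134 of brain counts but 20.7% ± 1.43 in gastrocnemius. Between 15934 and 16304 genes had at least 10 counts in a brain library, more than the 12791 to 13548 in gastrocnemius. Levels are in CPM, the counts of a gene as a share of the library's total after scaling by TMM (trimmed mean of M values), except where FPKM, the deposited level per gene length and library total, is named.

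Brain library 2 stands apart from the other brain libraries. Markers of skeletal muscle, 20 genes, summed to 97.3, 1320 and 60.1 CPM in brain libraries 1, 2 and 3, against 16.7 to 23.4 CPM in kidney. In library 2 that was 0.518% of the mean summed level in gastrocnemius, and 18 of the 20 markers were more than 2 times as high there as in either other brain library. Ckm, the creatine kinase of muscle, was at 0.192, 128 and 0.153 CPM in the 3 brain libraries and at 29990, 15770 and 19160 CPM in gastrocnemius. Library 2 also held less RNA of striatal and hypothalamic genes, whose values are given further on. In the main fit the median log2 fold change of the 20 muscle markers, brain against the mean of kidney and gastrocnemius, was -1.57. Of the 20, 3 were called lower at an adjusted p under 0.05, against 33.4% of all tested genes. Without library 2 the median was -5.76. The part that the features of library 2 have in other results was not tested, and counts without library 2 are given beside the main counts.

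Across 17252 tested genes, 6681 (38.7%) were higher in brain than in the mean of kidney and gastrocnemius and 5769 (33.4%) were lower, at an adjusted p under 0.05 (quasi-likelihood test of edgeR, p adjusted by Benjamini and Hochberg). Without brain library 2, with the filter on low counts run again, the counts were 6381 and 5462. Against kidney alone 6361 genes (36.9%) were higher and 5876 (34.1%) lower in brain, and against gastrocnemius alone 6793 (39.4%) and 5539 (32.1%). All 3 brain libraries lay above all 6 others in 5176 genes (30.0%) and below them in 3535 (20.5%). The median log2 fold change over all tested genes was 0.03. The split depends on the scaling. With library totals alone it was 9753 higher and 3039 lower, and with limma it was 9563 and 4010 on log2(FPKM + 1), and 9747 and 3772 on log2(FPKM + 0.1). Those scalings moved the median of all genes by 0.79, 0.36 and 0.69 on the log2 scale.

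Genes were called brain-enriched where the adjusted p was under 0.05 and the log2 fold change at least 2 (4-fold) against kidney and also against gastrocnemius, and brain-depleted where it was at most -2 against both. This gave 2762 enriched genes (16.0% of those tested) and 815 depleted genes (4.72%). Without brain library 2 the counts were 2893 and 799. The filter was run again there, so the genes tested differed. Leaving out any library gave more enriched genes than the main fit, from 2772 to 2967, so the rise is not particular to library 2. The number depleted depends on the scale: it was 361 with library totals alone, and 82 or 219 with limma on log2(FPKM + 1) or log2(FPKM + 0.1). The enriched genes took 27.6% ± 0.0178 of all brain counts, 0.870% ± 0.0487 of kidney counts and 0.516% ± 0.0797 of gastrocnemius counts. The depleted genes took 3.29% ± 0.0731 of brain counts, 18.5% ± 0.129 of kidney counts and 9.86% ± 0.681 of gastrocnemius counts. Abhd12 lay just inside the enriched limit, with a log2 fold change of 2.06 against kidney and 2.00 against gastrocnemius, and Soga1 just outside it, with 2.00 and 2.51. In these bulk samples, fewer cells of a type and less RNA per cell cannot be told apart.

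**Figure D1:**
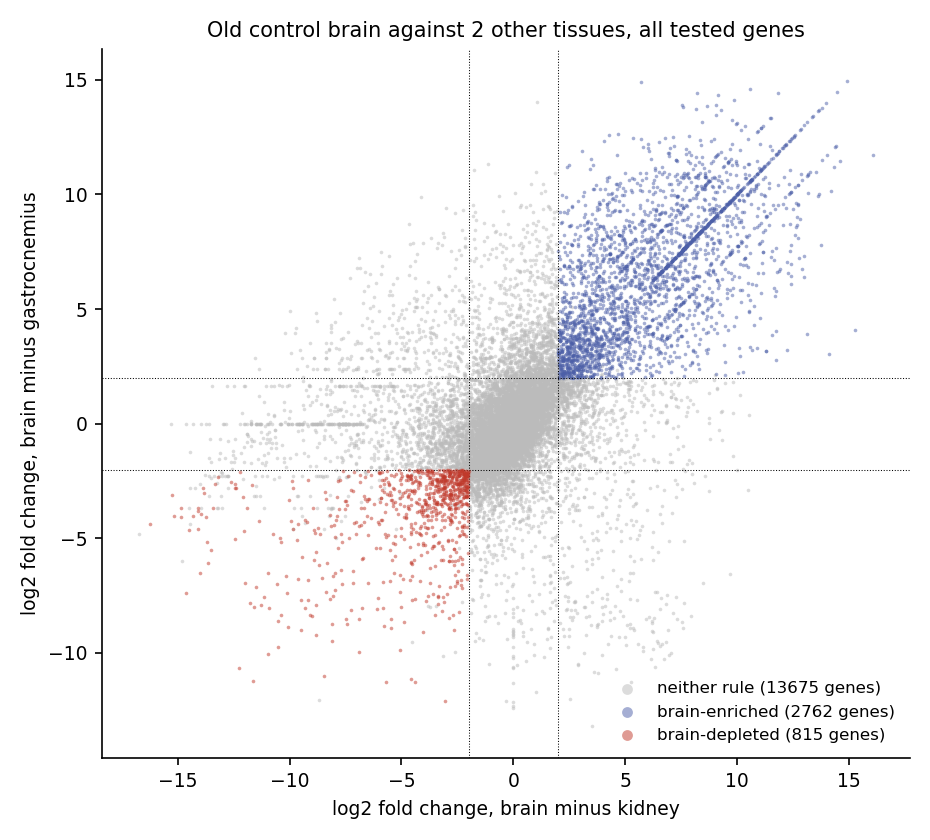
Log2 fold change of each tested gene between brain and kidney (x axis) and between brain and gastrocnemius (y axis), with dotted lines at the limits of -2 and 2. The 2762 brain-enriched genes lie at the upper right, the 815 brain-depleted genes at the lower left, and the straight row of enriched points holds genes with no count in either other tissue.

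Neuropeptides and granins carry slow signals between neurons. Of the 25 genes listed 22 were tested and all 22 were brain-enriched, against 16.0% of all tested genes. Of the 25, 13 had at most 3 counts in each kidney library and 18 in each gastrocnemius library. A gene that low in both is tested only if brain is high, so the share enriched is in part fixed by the filter on low counts. The median log2 fold change was 9.37, or 7.68 with the members that had no count in a tissue set at their lower bound (3 counts per library), and 10.24 without kidney library 1. Promoters are shown for 5 of these genes because they hold the same 8-base element, TGACGTCA, the palindrome to which the transcription factor CREB binds. This element was searched for after the values were seen, and it reads the same on both strands. RefSeq promoter windows (GRCm38.p6, 250 bases before to 50 after the gene start) were matched for 21 of the 25 genes, and 5 of the 21 (23.8%) held it, against 549 of all 27025 genes with a window (2.03%). A match describes the letters only. The 250 bases before the start follow, 5′ to 3′ on the gene's own strand, with the element in capitals.
Chgb: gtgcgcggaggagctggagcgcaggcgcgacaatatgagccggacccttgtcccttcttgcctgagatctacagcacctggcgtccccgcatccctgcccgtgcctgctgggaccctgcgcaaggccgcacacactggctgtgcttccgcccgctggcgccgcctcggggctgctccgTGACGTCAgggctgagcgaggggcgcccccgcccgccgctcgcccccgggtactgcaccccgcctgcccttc
Scg2: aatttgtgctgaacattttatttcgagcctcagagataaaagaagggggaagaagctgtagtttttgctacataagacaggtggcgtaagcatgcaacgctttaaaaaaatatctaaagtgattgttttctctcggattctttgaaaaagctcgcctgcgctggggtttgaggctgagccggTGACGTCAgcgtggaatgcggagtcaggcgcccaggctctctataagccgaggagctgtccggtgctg
Pcsk1: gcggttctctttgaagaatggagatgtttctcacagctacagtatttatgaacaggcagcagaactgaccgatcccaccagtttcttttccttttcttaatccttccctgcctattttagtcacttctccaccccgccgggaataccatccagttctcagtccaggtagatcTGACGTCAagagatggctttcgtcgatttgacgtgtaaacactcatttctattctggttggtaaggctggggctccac
Sst: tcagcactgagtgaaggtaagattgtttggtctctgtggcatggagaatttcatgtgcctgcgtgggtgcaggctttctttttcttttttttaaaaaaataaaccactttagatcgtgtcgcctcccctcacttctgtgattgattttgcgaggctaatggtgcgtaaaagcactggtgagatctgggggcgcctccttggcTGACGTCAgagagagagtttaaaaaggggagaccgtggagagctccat
Cartpt: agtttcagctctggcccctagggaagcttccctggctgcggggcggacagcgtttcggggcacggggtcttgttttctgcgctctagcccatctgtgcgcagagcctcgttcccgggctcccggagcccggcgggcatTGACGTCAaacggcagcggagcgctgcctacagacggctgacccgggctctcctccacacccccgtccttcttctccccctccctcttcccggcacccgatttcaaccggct

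The windows lie at chr2:132781392-132781641 for Chgb and chr13:75089607-75089856 for Pcsk1, both on the plus strand, and at chr1:79440027-79440276 for Scg2, chr16:23890845-23891094 for Sst and chr13:99900684-99900933 for Cartpt, all on the minus strand. The element starts 72 bases before the gene start in Chgb, 68 in Scg2, 78 in Pcsk1, 48 in Sst and 112 in Cartpt.

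These 5 genes serve the making and packing of peptides. Sst encodes somatostatin, an inhibitory peptide of interneurons, and was at 78.4, 78.9 and 105 CPM in the brain libraries with no count in any of the 6 other libraries. It was at least 611-fold higher than in kidney and at least 397-fold higher than in gastrocnemius. The 3 brain libraries lay close together and far above the others. Chgb and Scg2 encode granins of the dense-core vesicle. Chgb was at 436, 571 and 373 CPM in brain, 0.761 ± 1.01 in kidney and 0.617 ± 0.201 in gastrocnemius. Scg2 was at 407, 285 and 488 CPM in brain, 0.819 ± 1.31 in kidney and 0.272 ± 0.275 in gastrocnemius. Their log2 fold changes against the mean of both tissues were 9.35 ± 0.55 (SE; adjusted p = 2.14e-07) and 9.63 ± 0.77 (adjusted p = 2.01e-06, from edgeR's quasi-likelihood test with the Benjamini and Hochberg adjustment, as for every adjusted p here). Pcsk1, a protease that cuts prohormones, was at 16.8, 22.6 and 21.9 CPM in brain, with a log2 fold change of 7.67 ± 0.57 (adjusted p = 1.11e-06). Cartpt, the precursor of a peptide linked to feeding, was low and uneven at 6.18, 2.15 and 11.01 CPM, with no count outside brain.

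CREB is driven by CRTC coactivators, which salt-inducible kinases hold in the cytoplasm. Crtc1, the coactivator known from neurons, was at 145, 132 and 138 CPM in brain, 14.5, 16.5 and 12.5 in kidney and 26.1, 19.7 and 19.6 in gastrocnemius. All brain libraries stood above all others, and the gene was brain-enriched (log2 fold change 2.96 ± 0.13, adjusted p = 3.79e-08). Sik1, one of the kinases, was at 13.97, 19.9 and 22.02 CPM in brain, 57.1, 55.4 and 121 in kidney and 138, 174 and 179.7 in gastrocnemius. Its brain libraries lay below all others and it was brain-depleted (-2.60 ± 0.30, adjusted p = 2.91e-05). Sik3 and Creb1 were higher in brain by 0.68 ± 0.14 (adjusted p = 0.00161) and 0.83 ± 0.19 (adjusted p = 0.00313), and Sik2 did not pass the test (0.33 ± 0.22, adjusted p = 0.201). Of the 7 kinases and partners on the list, 3 were called higher and 2 lower, with a median of 0.33. With 7 members these counts are near the 38.7% and 33.4% of all tested genes. Crtc2, one of the lower calls (-0.80 ± 0.18), was at 0.004 to 0.016 with library totals alone and with limma.

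Among other peptides, Cpe, the carboxypeptidase that trims peptide precursors, had the highest mean FPKM in brain of all enriched genes, 971 ± 83.5 (SD, n = 3), against 32.1 ± 4.43 in kidney and 79.8 ± 24.1 in gastrocnemius. Cck, the cholecystokinin precursor of cortical neurons, was at 62.8, 70.9 and 45.03 CPM in brain, and Npy, neuropeptide Y, at 26.8, 21.5 and 22.1. Vip, of cortical interneurons, was at 12.7, 25.9 and 11.5 CPM, highest in library 2. Penk, the enkephalin precursor, was at 197, 57.4 and 312 CPM and Pdyn, the dynorphin precursor, at 36.6, 13.4 and 61.5. Both were lowest in brain library 2, as were Tac1 and Cartpt.

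By FPKM, which compares levels between genes, the 10 highest enriched genes were Cpe, Sparcl1, Calm2, Kif5a, Ckb, Ttr, Aplp1, Gpm6a, Scd2 and Pcp4. Sparcl1, a matrix protein that astrocytes secrete, was at 686 ± 49.2 FPKM in brain (SD, n = 3), 11.6 ± 2.24 in kidney and 42.5 ± 16.8 in gastrocnemius. Calm2, a calmodulin that senses calcium, was at 610.1 ± 24.9 FPKM, and Gpm6a, a neuronal membrane protein, at 367 ± 51.6. Scd2, a fatty acid desaturase used in myelin lipid synthesis, was at 341 ± 39.6 FPKM in brain and 16.9 ± 6.15 in kidney, and Pcp4, a calmodulin regulator, at 332 ± 128 and 0.606 ± 0.207. Calm2 and Scd2, which the other tissues also expressed, differed less: the log2 fold change was 2.64 ± 0.28 for Calm2 and 4.70 ± 0.25 for Scd2, against 5.94 ± 0.21 for Gpm6a.

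Among enriched genes of at least 10 CPM, those with the largest fitted differences besides Myt1l, Grm5, Sst, Slc32a1, Mlc1 and Htr2c were Scrt1, Rasgrf1, Lamp5 and Kndc1. Scrt1, a neuronal zinc-finger repressor, was at 133, 90.1 and 79.1 CPM in brain, and Rasgrf1, a calcium-driven activator of Ras, at 394, 479 and 415 CPM. In gastrocnemius, the higher of the other tissues, Rasgrf1 was at 0 to 0.333 CPM. Lamp5, of cortical neurons, was at 77.9, 71.9 and 52.2 CPM, with no overlap with the other tissues.

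General neuronal genes were enriched almost throughout: 24 of 25, with a median log2 fold change of 8.37 (8.24 with the bound, 9.20 without kidney library 1). Kif5a, the motor that carries cargo along axons, was at 2999, 2776 and 2163 CPM in brain, 5.85, 4.62 and 6.06 in kidney and 1.02, 2.89 and 2.27 in gastrocnemius. Every brain library was far above every other library, and the log2 fold change was 9.61 ± 0.32 (adjusted p = 6.52e-09). Uchl1, a neuronal deubiquitinase, was at 228, 184 and 232 CPM in brain. Mapt, which encodes tau, was the 1 member not enriched. It was at 417, 424 and 412 CPM in brain, 114, 95.5 and 152 in kidney and 239, 48.7 and 34.4 in gastrocnemius, without overlap, and its log2 fold change of 1.88 ± 0.49 (adjusted p = 0.00606) stayed under the limit.

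The machinery of transmitter release was brain-enriched in full, 24 of 24 genes, with a median of 8.58 (8.27 with the bound). Slc17a7, which loads glutamate into vesicles in cortical neurons, was at 426, 621 and 359 CPM in brain, 0.0457, 0.0847 and 0.165 in kidney and 0.850, 0.826 and 0.3998 in gastrocnemius. The brain libraries were far above the rest with library 2 the highest of the 3, and the log2 fold change was 10.80 ± 0.30 (adjusted p = 3.55e-09). Slc17a6, the glutamate loader of deeper regions, was at 75.7, 42.3 and 49.7 CPM and Slc32a1, which loads GABA and glycine, at 83.8, 46.2 and 113 CPM, with no count in kidney or gastrocnemius. Here library 2 was the lowest. Vamp1 and Vamp2, SNARE proteins of the vesicle, had the smallest differences of the list, at 2.57 ± 0.19 and 3.07 ± 0.12. Vamp2 was at 74.6 ± 4.92 CPM in kidney and 86.2 ± 7.68 in gastrocnemius.

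Glutamate receptors and postsynaptic proteins were higher in brain for 32 of 32 genes and enriched for 27, with a median of 7.87 (7.33 with the bound). Grm5, a metabotropic glutamate receptor, was at 123, 138 and 162 CPM with no count elsewhere, at least 986-fold above kidney and 640.1-fold above gastrocnemius. The NMDA receptor subunits Grin2a and Grin2b were at 118, 171 and 94.5 CPM and at 281, 380.2 and 299 CPM. In the other tissues Grin2b was at 0 to 0.1102 CPM in kidney and 0 to 0.0688 in gastrocnemius. The 5 members not enriched were scaffolds and a kinase that kidney or gastrocnemius also expressed. Camk2b, a calcium-dependent kinase, was at 471, 551 and 464 CPM in brain and 425, 302 and 174 in gastrocnemius, where the groups did not overlap but came close (log2 fold change against gastrocnemius 0.72, adjusted p = 0.0606). Homer1 was at 48.6, 85.3 and 56.2 CPM in brain and 54.3, 41.2 and 103 in gastrocnemius, and the groups overlapped. Shank2 and Baiap2 were shared with kidney, at 38.3 ± 2.63 and 73.7 ± 26.1 CPM there, and Shank3 differed from gastrocnemius by 1.72.

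GABA and glycine genes gave 22 enriched of 25 tested, with a median of 9.37 (8.45 with the bound). Gad2, which makes GABA, was at 294, 198 and 428 CPM in brain and 0 to 0.183 in kidney and 0 to 0.138 in gastrocnemius. The brain libraries were far above, with library 3 the highest (11.75 ± 0.44, adjusted p = 1.18e-08). Abat, which breaks GABA down, was shared with kidney, at 330, 251 and 402 CPM in brain and 429.9, 426 and 424 in kidney. Slc6a5, the glycine transporter of hindbrain and spinal neurons, was near its floor at 0.154, 0.162 and 0.191 CPM and was not tested.

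Monoamine genes split. Of 26 tested, 19 were called higher and 4 lower, with 15 enriched and 2 depleted, and the median was 5.35 (4.05 with the bound, 4.72 without brain library 2). Receptors led, and Htr2c, a serotonin receptor, was at 41.5, 62.6 and 92.8 CPM with no count elsewhere, and Drd1, a dopamine receptor of the striatum, was at 31.1, 9.76 and 59.3 CPM, lowest in library 2. The synthetic and uptake genes that mark the small monoamine nuclei were low and differed between brain libraries. Slc6a3, the dopamine transporter, was at 2.88, 26.6 and 2.599 CPM and was highest in library 2. Tph2, which makes serotonin in the raphe, was at 4.68, 0.446 and 0.306 CPM, highest in library 1, and was not tested. Slc18a1, a monoamine vesicle transporter of endocrine cells, was at 0.0767, 0.243 and 0.268 CPM in brain but 128, 103 and 154 in kidney, and was depleted (-6.76 ± 0.71, adjusted p = 1.36e-05).

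Acetylcholine genes divided by where their receptors sit. Of 20 tested, 16 were called higher and 3 lower, with a median of 4.80 (3.31 with the bound). It rests on few counts and was 6.37 without kidney library 1 and 6.07 without gastrocnemius library 3. Chrm1, a muscarinic receptor of cortex and hippocampus, was at 77.4, 98.7 and 73.01 CPM in brain, 0.127 to 0.457 in kidney and 0 in gastrocnemius. Chat, which makes acetylcholine, was low at 3.34, 0.689 and 8.49 CPM, lowest in library 2. The nicotinic subunits of the muscle endplate went the other way. Chrnb1 was at 0.384, 0.972 and 0.956 CPM in brain and 143, 94.4 and 89.6 in gastrocnemius, and Chrne had 0, 0 and 0.115 CPM in brain; both were depleted. Chrnd had no count in brain and was at 6.14 ± 2.73 CPM in gastrocnemius, a call that was lost without kidney library 3.

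Of 44 voltage-gated channel genes, 38 were called higher and 31 were enriched, with a median of 5.86 (5.83 with the bound). Cacna1b, the N-type calcium channel of nerve terminals, was at 96.8, 98.4 and 95.2 CPM in brain, 0 to 0.0913 in kidney and 0 to 0.207 in gastrocnemius (10.55 ± 0.36, adjusted p = 7.99e-09). The 4 called lower were channels of other tissues. Scn4a, Kcna7 and Cacna1s of skeletal muscle were at 635 ± 95.04, 139 ± 22.1 and 1493 ± 176 CPM in gastrocnemius, and Kcnq1 at 27.4 ± 1.38 CPM in kidney. The 3 muscle channels were highest in library 2 among the brain libraries, with Scn4a at 0, 1.54 and 0.115 CPM, and the Scn4a call was lost without kidney library 3 (-3.83).

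**Figure D2:**
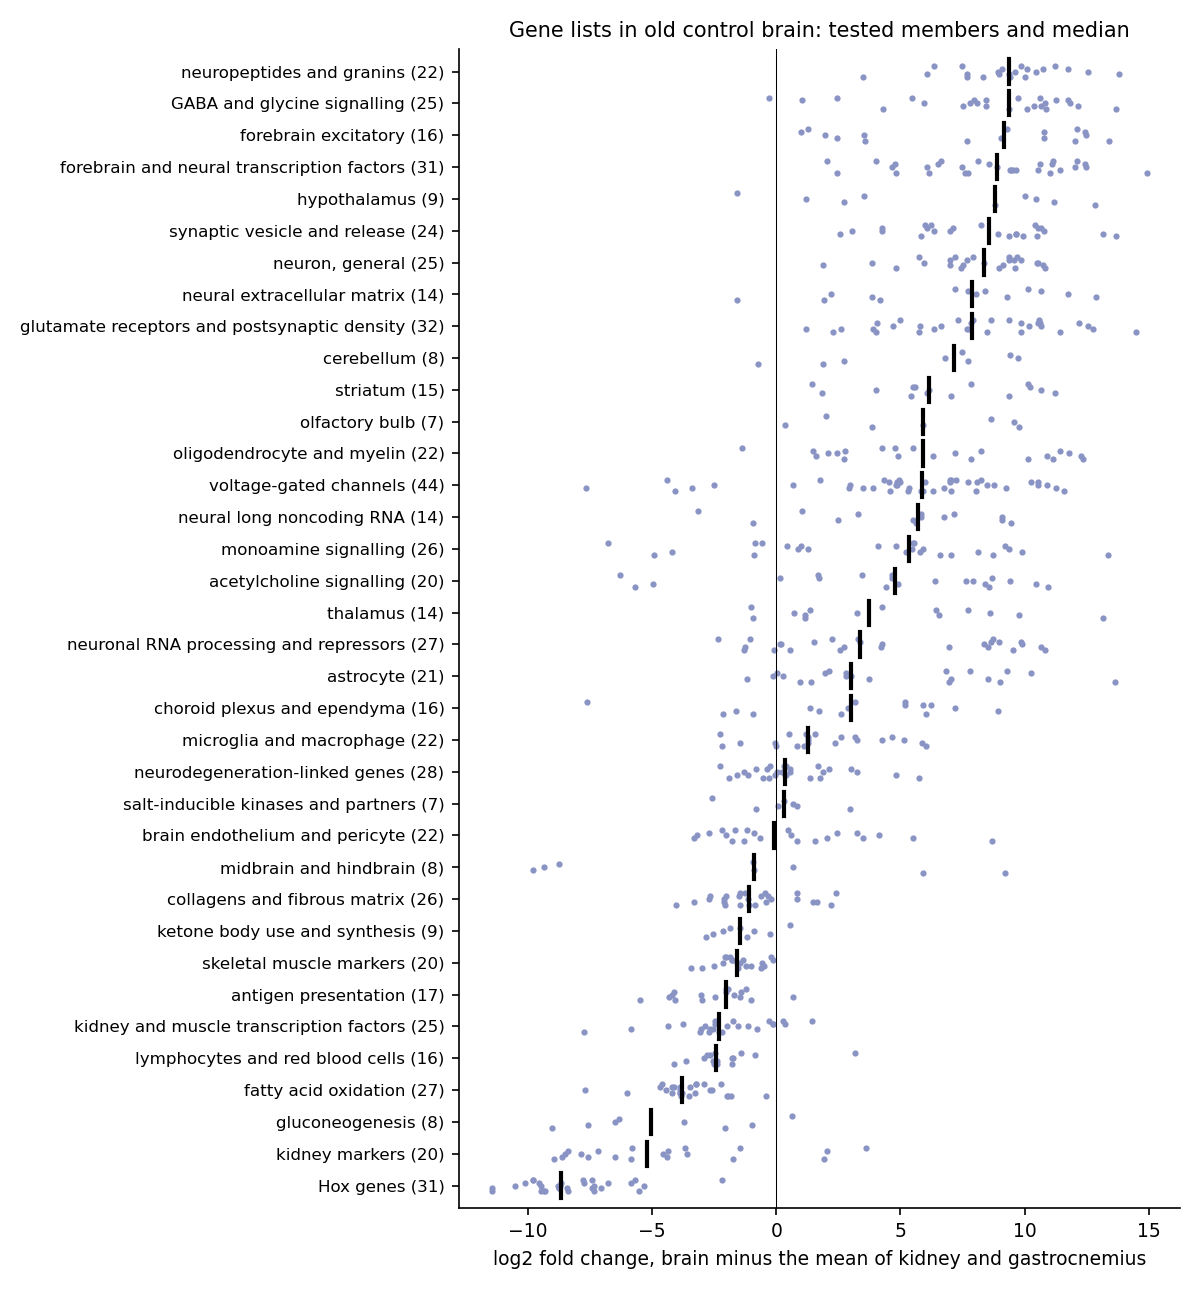
Log2 fold change between brain and the mean of kidney and gastrocnemius for each tested member (points) of 36 gene lists, with the number of tested members in parentheses and the list median as a black bar. Neuronal lists lie at the top, with fitted medians up to 9.37, and the Hox genes at the bottom, with a fitted median of -8.66.

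Among glia, oligodendrocyte and myelin genes gave 16 enriched of 22, with a median of 5.90 (5.77 with the bound, 6.67 without gastrocnemius library 3). Mobp, a myelin protein, was at 1393, 1190 and 938 CPM in brain, 0.137, 0.0847 and 0.0551 in kidney and 0.170, 0.826 and 0.666 in gastrocnemius. All brain libraries were far above the others, and library 1 was the highest (12.25 ± 0.34, adjusted p = 3.55e-09). Mog, on the outer face of myelin, was at 38.5, 25.6 and 32.9 CPM with no count elsewhere. Library 1 was the highest for most of the list, by 0.39 on the mean log2(CPM + 0.5) scale above the mean of the 3. Aspa, which splits N-acetylaspartate, was the 1 member called lower: it was at 12.97, 11.4 and 9.25 CPM in brain and 108, 107 and 108 in kidney. Mal and Ugt8a were also high in kidney, at 246 ± 11.4 and 83.7 ± 29.3 CPM.

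Astrocyte genes gave 11 enriched of 21 and a median of 3.03. Gfap, the filament of reactive and white-matter astrocytes, was at 233, 269.9 and 187 CPM in brain, 0.137, 0.212 and 0.1102 in kidney and 0.0850, 0.275 and 0.267 in gastrocnemius. There was no overlap (10.24 ± 0.23, adjusted p = 2.91e-09). Mlc1, of the astrocyte endfoot, was at 79.8, 69.2 and 87.5 CPM with no count elsewhere. Slc1a2, the main glutamate uptake carrier, was at 1672, 369 and 1525 CPM, and library 2 was low. Several astrocyte markers were not specific to brain among these tissues. Glul, glutamine synthetase, was at 1515, 1495 and 1427 CPM in brain and 1066, 1912 and 1772 in gastrocnemius, which overlapped (log2 fold change against the mean 0.28 ± 0.22, adjusted p = 0.272). Aldh1l1, a folate enzyme, was at 44.7, 40.9 and 49.7 CPM in brain and 536, 638 and 624 in kidney, and was called lower (-1.16 ± 0.19, adjusted p = 3.18e-04). That call was lost with library totals (-0.37, adjusted p = 0.123) and with limma on log2(FPKM + 0.1) (-0.38, adjusted p = 0.0877).

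Microglia and macrophage genes gave 16 called higher, 3 lower and 6 enriched of 22, with a median of 1.29. The receptors that mark microglia led. P2ry12, a purine receptor, was at 20.03, 16.5 and 22.5 CPM in brain, 0.365, 0.297 and 0.716 in kidney and 0.340, 0.138 and 0.133 in gastrocnemius, without overlap (6.02 ± 0.29, adjusted p = 5.64e-08). Trem2, a lipid-sensing receptor linked to Alzheimer's disease, was at 8.59, 5.67 and 8.03 CPM (3.26 ± 0.24, adjusted p = 1.02e-06). Genes that other macrophages express more went the other way. Mrc1, the mannose receptor, was at 1.11, 2.59 and 1.95 CPM in brain, 7.54, 9.62 and 7.82 in kidney and 4.08, 9.64 and 12.7 in gastrocnemius, which made it depleted (-2.19 ± 0.39, adjusted p = 6.21e-04). Lyz2, lysozyme, was also lower (-2.28 ± 0.30, adjusted p = 7.02e-05). Cd163, another macrophage gene, was lower by a call that did not hold (-1.45 ± 0.54, adjusted p = 0.0333): the adjusted p was 0.294 with library totals, 0.132 and 0.159 with limma, and from 0.0530 to 0.0837 without brain 1, kidney 1, gastrocnemius 2 or gastrocnemius 3.

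Vessel genes had no common direction: 9 of 22 were called higher and 11 lower, with a median of -0.10 that lay between 0.06 and 0.67 under library totals alone and both limma settings. Enriched members were 4 of 22 (18.2%), near the 16.0% of all tested genes. They were Slco1c1, Slco1a4, Slc7a5 and Lef1. Slco1c1, which carries thyroid hormone, was at 34.5, 34.9 and 24.7 CPM in brain, 0 to 0.0424 in kidney and 0.255 to 0.275 in gastrocnemius (8.67 ± 0.29, adjusted p = 6.29e-09). Lef1, a transcription factor of Wnt signalling, was at 9.02, 5.996 and 4.63 CPM (4.12 ± 0.31, adjusted p = 1.18e-06). Cdh5 and Pecam1, general endothelial genes, were lower. Cdh5, of endothelial junctions, was at 12.3, 14.3 and 12.8 CPM in brain and 132, 134 and 151 in gastrocnemius (-2.18 ± 0.13, adjusted p = 2.61e-07). Plvap, of fenestrated vessels, was at 4.41, 4.05 and 5.05 CPM in brain and 82.3, 81.6 and 47.8 in kidney (-2.69 ± 0.22, adjusted p = 2.02e-06).

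Of 16 choroid plexus and ependymal genes 9 were enriched and 1 depleted, with a median of 3.02 (2.74 with the bound). Ttr, the thyroid hormone carrier secreted by the choroid plexus, was at 429.7, 437 and 319 CPM in brain, 39.2, 31.9 and 51.2 in kidney and 0.765, 0.688 and 1.199 in gastrocnemius. It was among the 10 enriched genes of highest FPKM, at 467 ± 71.3. Foxj1, a regulator of motile cilia, was at 6.83, 5.35 and 5.47 CPM. Aqp1, a water channel that the choroid plexus also uses, was at 2.88, 3.97 and 4.55 CPM in brain, 981, 1191 and 691 in kidney and 331, 482 and 944 in gastrocnemius. Brain was below all other libraries (-7.62 ± 0.49, adjusted p = 3.97e-07).

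**Figure D3:**
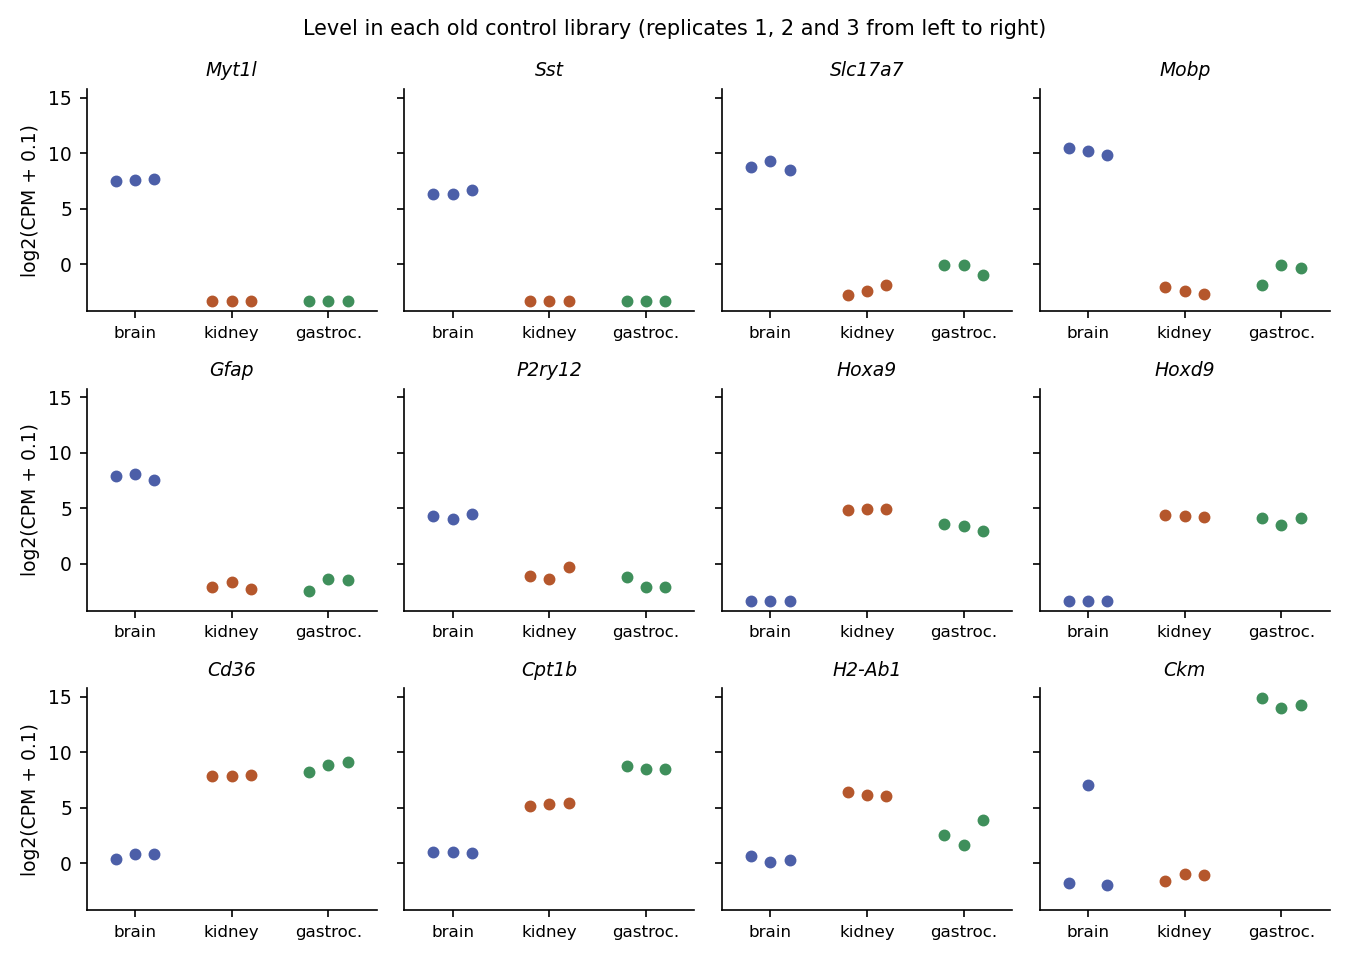
Level of 12 genes in each of the 9 libraries on the log2(CPM + 0.1) scale, with replicates 1 to 3 of each tissue from left to right; points at the lowest level have no count. Myt1l and Sst have no count outside brain, Hoxa9 and Hoxd9 have none in brain, and Ckm is raised in brain library 2 alone among the brain libraries.

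Lists of regional markers were compared, though some of their members are also expressed outside brain. Genes of excitatory forebrain neurons were called higher for 16 of 16 and enriched for 11 (median 9.19, or 7.66 with the bound and 10.15 without gastrocnemius library 2), and those of the striatum for 15 and 12 of 15 (6.16, or 6.06). Of 14 genes of the cerebellum list 8 were tested, 7 called higher and 5 enriched, with a median of 7.15 (6.13 with the bound, 6.52 without kidney library 1) and sums of 548, 446 and 444 CPM in the brain libraries. Gabra6, a member that marks granule cells, was near the floor at 0.154, 0.08102 and 0.0765 CPM and was not tested. Of 14 midbrain and hindbrain genes 8 were tested, with 2 enriched and 3 depleted, and a median of -0.91. The list holds Hoxb3, Hoxb4 and Hoxb5, which also count among the Hox genes below. All 8 tested genes of the Hoxb cluster were depleted, so the depleted calls and the median do not describe midbrain and hindbrain markers alone. The median was positive, at 0.12 to 1.13, when any of 6 libraries (brain 1 or 3, kidney 2, or any of gastrocnemius) was left out. The filter was run again in those fits, so the members tested may differ. No pituitary gene of 9 was tested, and their summed level was 0.122 to 1.91 CPM.

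The make-up differed between brain libraries. Striatal genes summed to 1472, 567 and 1787 CPM in libraries 1, 2 and 3, and hypothalamic genes to 173, 28.8 and 196 CPM. Pmch, the melanin-concentrating hormone of the lateral hypothalamus, was at 62.9, 8.102 and 63.3 CPM, and Hcrt, hypocretin, at 13.2, 1.499 and 9.86 CPM. Oxt, oxytocin, was at 11.6, 0 and 11.1 CPM and Avp, vasopressin, at 10.7, 0 and 22.4 CPM; neither had a count in library 2 and neither was tested. Olfactory bulb genes summed to 60.7, 47.4 and 204 CPM. Cdhr1, a cadherin of the bulb's output neurons, was at 3.07, 4.98 and 56.9 CPM and Eomes at 0.384, 0.486 and 9.37 CPM, so library 3 alone was high. Excitatory forebrain genes summed to 1341, 1829 and 1145 CPM, and Neurod6, a cortical transcription factor, was at 52.8, 108 and 11.7 CPM, highest in library 2 and lowest in library 3. Mpped1, another gene of cortex, was at 14.9, 148 and 73.4 CPM, and Irs4, an insulin receptor substrate known from the hypothalamus, at 22.2, 2.59 and 23.01 CPM. Thalamic genes were highest in library 1, with 795 CPM against 463 and 481. General neuronal, release and glutamate receptor lists stayed within 0.12 of their own mean in every brain library on the log2(CPM + 0.5) scale.

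**Figure D4:**
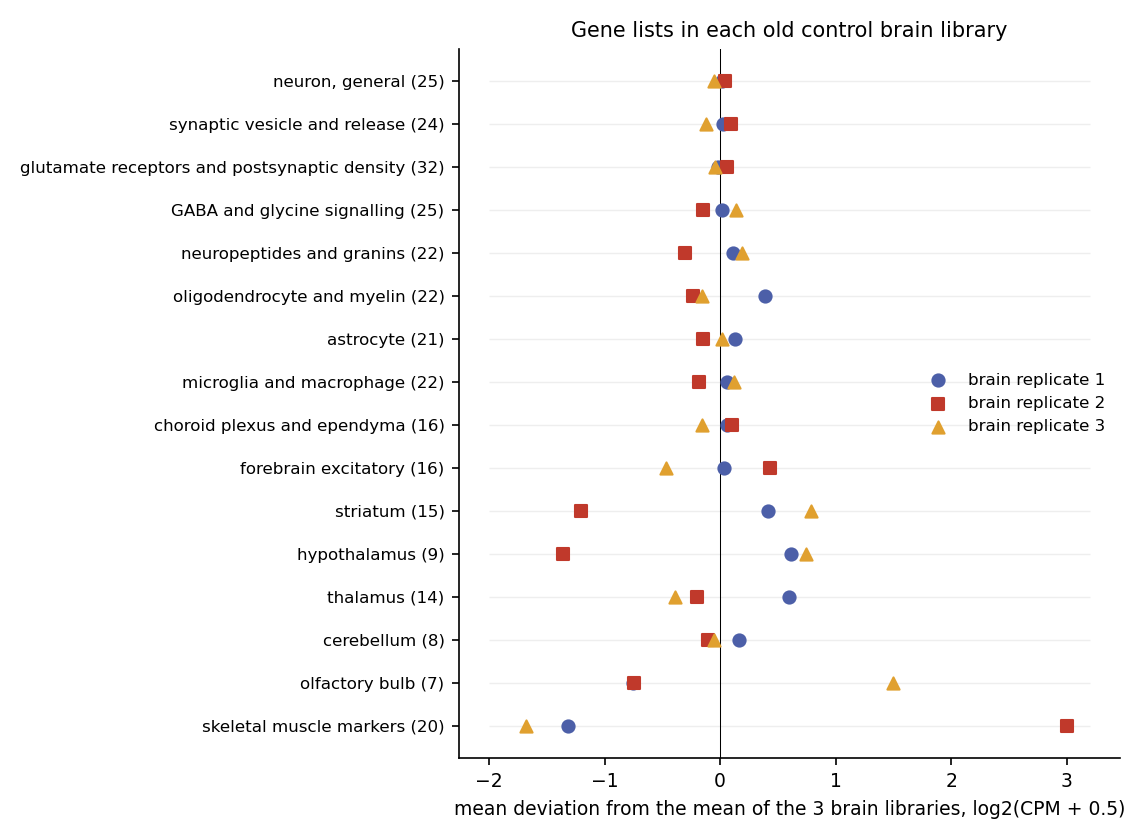
Mean deviation of 16 gene lists in each brain library from the mean of the 3 brain libraries, on the log2(CPM + 0.5) scale, with the number of tested genes in parentheses. Pan-neuronal lists lie near 0, while library 2 is low for striatum (-1.21) and hypothalamus (-1.36) and high for skeletal muscle markers (3.0), and library 3 is high for olfactory bulb (1.5).

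Neural transcription factors were called higher for 31 of 31 and enriched for 28, with a median of 8.90 (6.25 with the bound). Of the 31, 22 had at most 3 counts in each kidney library and 21 in each gastrocnemius library. Genes that low in both are tested only if brain is high, so these shares are in part fixed by the filter. Myt1l, a zinc-finger factor that keeps neuronal identity by repressing other programmes, lies at chr12:29528384-29923209 (GRCm38) and was at 185, 194 and 200.3 CPM in brain with no count in any of the 6 other libraries. It had the largest fitted difference of all enriched genes with at least 10 CPM and was at least 1348-fold above kidney and 875-fold above gastrocnemius. Bcl11b, a factor of deep-layer cortical and striatal neurons, was at 72.1, 68.6 and 100.2 CPM. Mef2c, an activity-regulated factor that muscle also uses, was at 112, 263 and 64.3 CPM in brain and 437, 221 and 457 in gastrocnemius and was not enriched. Pou3f3 was shared with kidney, at 58.2, 60.8 and 43.0 CPM in brain and 89.02, 104 and 62.5 in kidney.

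Both Rest and Ptbp1, which hold neuronal programmes off elsewhere, were lower in brain. Rest, the repressor of neuronal genes in other tissues, was at 4.26, 4.01 and 4.702 CPM in brain, 24.5, 28.6 and 36.1 in kidney and 14.2, 16.04 and 17.7 in gastrocnemius. Brain was below every other library (-2.33 ± 0.18, adjusted p = 1.50e-06). Ptbp1, a splicing repressor that neurons replace with Ptbp2, was at 20.03, 20.4 and 15.4 CPM in brain and 84.5, 96.04 and 89.9 in kidney (-1.24 ± 0.18, adjusted p = 1.33e-04), with no such gap to gastrocnemius (20.3, 16.6 and 27.1 CPM). The call was lost with library totals (-0.45). Ptbp2 was higher in brain at 61.6, 68.02 and 73.2 CPM (1.52 ± 0.14, adjusted p = 6.79e-06). Of 27 neuronal RNA-processing genes 20 were called higher, 4 lower and 15 enriched, with a median of 3.37. Srrm4, which drives neuronal microexons, was at 41.7, 51.6 and 37.7 CPM (6.95 ± 0.22, adjusted p = 5.26e-09). Rbfox1 was high in gastrocnemius also, at 429 ± 43.2 CPM against 218 ± 21.2 in brain.

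Of 14 neural long noncoding RNAs, 12 were called higher and 8 enriched, with a median of 5.73 (4.53 with the bound). Meg3, an imprinted RNA of the Dlk1-Dio3 locus, was at 3534, 3297 and 3514 CPM in brain, 7.45, 0.593 and 0.936 in kidney and 8.08, 11.7 and 20.99 in gastrocnemius. It had the highest mean CPM of all enriched genes, and its brain libraries were all far above the rest (9.07 ± 0.75, adjusted p = 2.46e-06). Rian and Mirg, from the same locus, were enriched too. Whether counting used strand is not given in the sources used here, so reads of overlapping or antisense transcripts cannot be told apart. Neat1, the scaffold of paraspeckles, was depleted: it was at 170.2, 264 and 124 CPM in brain, 1038, 933 and 1461 in kidney and 1482, 2664 and 3108 in gastrocnemius (-3.16 ± 0.37, adjusted p = 3.22e-05).

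The brain's extracellular matrix was distinct from fibrous matrix. Of 14 neural matrix genes 11 were enriched, with a median of 7.89 (7.54 with the bound). Of 26 collagen and fibrous matrix genes 5 were called higher and 15 lower, with a median of -1.11. That median depends on the scaling: it was -0.32 with library totals alone, and -0.13 and -0.24 with limma on log2(FPKM + 1) and log2(FPKM + 0.1). The 26 genes summed to 976, 781 and 949 CPM in brain, 642, 634 and 905 in kidney and 878, 1265 and 1877 in gastrocnemius, so the sum was not lower than in kidney. Ncan and Bcan, proteoglycans of perineuronal nets, were at 91.4, 103 and 111 CPM and at 125, 94.8 and 133 CPM in brain. Outside brain Bcan reached 0 to 0.0457 CPM in kidney and 0 to 0.138 in gastrocnemius. Col3a1, a fibrillar collagen, was at 1.57, 1.46 and 1.41 CPM in brain, 7.95, 6.86 and 12.1 in kidney and 11.3, 21.1 and 42.04 in gastrocnemius, without overlap (-3.33 ± 0.44, adjusted p = 6.91e-05). Lox, which crosslinks collagen, was also depleted (-4.05 ± 0.42, adjusted p = 1.21e-05). Sparc and Col6a1 were the largest exceptions, higher in brain by 2.20 ± 0.16 (adjusted p = 1.01e-06) and 2.40 ± 0.29 (adjusted p = 4.01e-05).

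Several enzyme and structural families used a different main member in brain, judged by share of the family's summed FPKM. Of 25 families, the top member in brain differed from that in both other tissues in 9, from gastrocnemius only in 8, from kidney only in 2 and from neither in 6. The top member by mean did not lead in all 3 brain libraries for alpha actinin, one of the 9, and for aldolase, one of the 2. The families were chosen as ones whose members differ between tissues, so these counts do not show how common such differences are. Eno2, the neuronal enolase, gave 57.7% ± 4.004 of enolase FPKM in brain (SD, n = 3), where kidney used Eno1 (91.5%) and gastrocnemius Eno3 (99.3%). At the gate to fatty acid oxidation, Cpt1c, a form with little catalytic activity, gave 75.4% ± 1.604 of Cpt1 FPKM in brain. Cpt1a gave 92.4% in kidney and Cpt1b 95.1% in gastrocnemius. Glucose entry used Slc2a1 (66.3%, barrier and glia) and Slc2a3 (31.9%, neurons) in brain, Slc2a2 in kidney (64.8%) and insulin-responsive Slc2a4 in gastrocnemius (94.6%).

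Ankyrins of the membrane skeleton also had their own leading member in each tissue, Ank2 (63.8%) in brain, Ank3 (90.5%) in kidney and Ank1 (65.8% ± 18.6) in gastrocnemius. The last did not lead in all 3 gastrocnemius libraries, where Ank3 gave 27.6% ± 15.6. Dnm1, the dynamin of synaptic vesicle recycling, gave 81.4% in brain, whereas both other tissues used Dnm2 (93.5% and 88.9%). For the ryanodine receptor, Ryr2 gave 64.1% in brain, of a family sum of 18.6 FPKM, and Ryr1 99.9% in gastrocnemius. The family summed to only 0.0646 FPKM in kidney. For glycogen phosphorylase, Pygb gave 70.5% in brain, kidney split between Pygb (47.8%) and Pygl (47.2%), and Pygm gave 99.9% in gastrocnemius. Shares that hold muscle members varied with library 2: Ckm was 7.903% ± 13.6 of creatine kinase FPKM in brain and Actn3 13.7% ± 21.9 of alpha actinin FPKM.

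**Figure D5:**
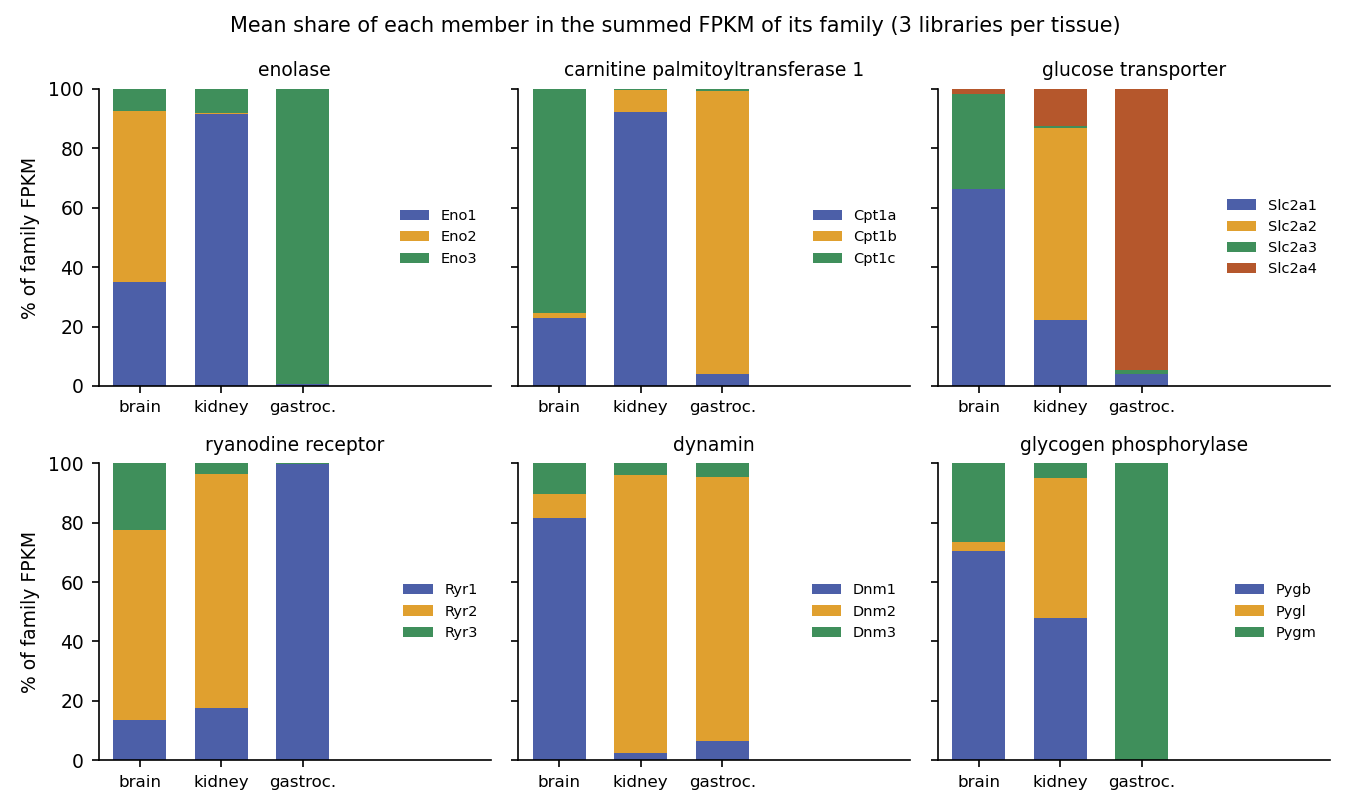
Mean share of each member in the summed FPKM of its family for 6 families, in brain, kidney and gastrocnemius (3 libraries each; stacked bars add to 100%). Brain has its own leading member for enolase (Eno2), carnitine palmitoyltransferase 1 (Cpt1c) and dynamin (Dnm1).

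Hox genes, the homeobox genes that set position along the trunk and limbs, were nearly all depleted. Of 39 Hox genes 31 were tested, 30 were called lower and 29 depleted, against 4.72% of all tested genes. The median was -8.66, or -5.55 with the bound, and -1.27 and -3.77 with limma on log2(FPKM + 1) and log2(FPKM + 0.1). In brain 26 of the 39 had no count in any library and 35 had at most 3 counts in each. Genes that low in brain are tested only if kidney or gastrocnemius is high, so the share called lower is in part fixed by the filter. Hoxa9, at chr6:52223100-52231089 (GRCm38), had no count in brain and was at 28.8, 30.97 and 29.8 CPM in kidney and 11.8, 10.6 and 7.73 in gastrocnemius, at least 255-fold and 85.8-fold above the brain floor. Hoxd9 had no count in brain either, and was at 20.5, 19.8 and 18.7 CPM in kidney and 16.7, 10.9 and 17.1 in gastrocnemius.

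All 4 clusters were at or near 0 in brain but differed between the other tissues. The Hoxa cluster, on chromosome 6, summed to 0.269, 0.689 and 0.191 CPM in brain, 114 ± 2.97 in kidney and 68.4 ± 13.3 in gastrocnemius. The Hoxb cluster, on chromosome 11, held 2 counts in all 3 brain libraries and summed to 128 ± 6.72 CPM in kidney but 7.66 ± 0.238 in gastrocnemius. Hoxc, on chromosome 15, was the reverse, with 34.1 ± 3.41 CPM in kidney and 154 ± 36.1 in gastrocnemius, and Hoxd, on chromosome 2, summed to 92.3 ± 5.43 and 41.9 ± 8.27. What Hoxc signal brain had lay mainly in library 2, with 0.0384, 1.01 and 0 CPM. Hoxc10, the Hoxc gene highest in gastrocnemius at 117 ± 29.98 CPM, gave 0.770 CPM of it.

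Genes of fatty acid oxidation were low in the 3 brain libraries. All 27 genes of the list were called lower and 21 were depleted, with a median of -3.81. Cd36, which takes up fatty acids, was at 1.19, 1.702 and 1.72 CPM in brain, 226, 228 and 249.8 in kidney and 303, 455 and 549 in gastrocnemius. The groups were far apart and the brain libraries close together (-7.70 ± 0.30, adjusted p = 1.44e-08). Cpt1b, which admits long chains to mitochondria in muscle, was at 1.96, 1.904 and 1.797 CPM in brain, 35.8, 39.5 and 42.96 in kidney and 441, 352 and 360.3 in gastrocnemius (-6.02 ± 0.18, adjusted p = 4.01e-09). Acadm, the medium-chain dehydrogenase, was at 21.1, 18.8 and 18.6 CPM in brain, 518, 583 and 504 in kidney and 331, 314 and 331 in gastrocnemius (-4.42 ± 0.15, adjusted p = 8.35e-09). Ppara, the receptor that turns this pathway on, was depleted too, at 1.73, 1.78 and 1.797 CPM in brain, 32.3, 37.8 and 65.9 in kidney and 7.99, 18.7 and 18.3 in gastrocnemius (-3.88 ± 0.37, adjusted p = 7.45e-06). The 27 genes summed to 602 to 629 CPM in the brain libraries, against 9181 to 11350 in kidney. Library 2 was not apart here.

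Gluconeogenesis gave 7 of 8 called lower and 3 depleted, with a median of -5.03 (-6.12 without brain library 3, -4.20 without gastrocnemius library 3). The difference lay mostly against kidney, with a median of -6.67, and was -1.19 against gastrocnemius. Fbp2, the muscle fructose bisphosphatase, was at 0.0767, 0.08102 and 0 CPM in brain, 28.4, 28.9 and 22.4 in kidney and 32.1, 39.5 and 32.1 in gastrocnemius (-9.02 ± 0.38, adjusted p = 2.41e-08). Pck1 was at 0.154, 0.486 and 1.57 CPM in brain and 2767, 4700 and 6380 in kidney (-7.58 ± 0.85, adjusted p = 2.18e-05). The mitochondrial Pck2 was the exception, at 12.8, 14.3 and 13.3 CPM in brain and higher than the mean of both tissues by 0.62 ± 0.15 (adjusted p = 0.00368). Of 9 ketone body genes 7 were called lower, with a median of -1.48 (-2.725 against kidney and -0.327 against gastrocnemius). Oxct1, which lets cells burn ketones, was still abundant at 195, 200.1 and 115 CPM in brain, against 431, 450.3 and 512 in kidney and 191, 215 and 234 in gastrocnemius (-0.89 ± 0.20, adjusted p = 0.00219).

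Antigen presentation was lower in brain for 16 of 17 genes, and 8 were depleted, with a median of -2.02. H2-Ab1, a chain of MHC class II, was at 1.46, 0.972 and 1.11 CPM in brain, 83.4, 69.99 and 64.8 in kidney and 5.87, 3.097 and 14.7 in gastrocnemius, without overlap (-4.34 ± 0.49, adjusted p = 2.26e-05). Ciita, the regulator that turns class II genes on, had 0, 0.0405 and 0 CPM in brain and 3.43, 2.67 and 3.97 in kidney (-5.49 ± 1.00, adjusted p = 6.56e-04). The class I gene H2-K1 was at 20.6, 18.5 and 20.2 CPM in brain, 248, 214 and 176 in kidney and 112, 113 and 121 in gastrocnemius (-2.98 ± 0.15, adjusted p = 8.32e-08), although reads of near-identical class I genes may be split between them. Lymphocyte and blood cell genes were lower for 12 of 16, with a median of -2.43. Igkc, an antibody light chain, was at 4.26, 5.27 and 3.29 CPM in brain and 171, 527 and 347 in kidney. Haemoglobin genes, whose copies share reads, were lowest in brain library 2: Hba-a1 was at 4.18, 0.851 and 4.78 CPM. Cd4 was the exception at 9.78, 1.296 and 14.5 CPM in brain, higher than in the other tissues (3.16 ± 0.69, adjusted p = 0.00214) and also lowest in library 2. How far blood left in the tissue differs between samples was not tested.

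Of 20 kidney markers 16 were called lower, with a median of -5.20 (-6.33 without brain library 3, -4.33 without gastrocnemius library 3). The median was -10.94 against kidney and 0.24 against gastrocnemius, so kidney carried it. The 2 called higher, Calb1 (92.3, 90.1 and 101 CPM in brain) and Nphs1, were below kidney but at or near 0 in gastrocnemius. The log2 fold change of Nphs1 was negative with both limma settings, and its call was lost without gastrocnemius library 2 or 3. Of 25 transcription factors of kidney and muscle 11 were called lower and 1 higher, with a median of -2.30 (-2.88 with the bound). Hnf4a, a master regulator of kidney tubule and liver, was at 0.115, 0.0405 and 0.0765 CPM in brain and 791, 774 and 796 in kidney.

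By counts alone, 671 of the 24413 genes with any count (2.75%) were detected in brain alone, with at most 3 counts in each of the 6 other libraries and a mean of at least 1 CPM in brain. Without brain library 2 there were 677. They ranged up to 320.3 CPM with a median of 4.28 CPM, and took 1.497% ± 0.0863 of brain counts. Besides Myt1l, Grm5, Grin2a and Grin2b, the highest named members were Kndc1, a guanine exchange factor of dendrites (155, 155 and 92.8 CPM), Brinp1 (152, 169 and 122), B3gat1, which makes the HNK-1 sugar epitope (130.2, 153 and 136), St8sia3, a sialic acid transferase (123, 126 and 157), and the orphan receptor Gpr26 (119, 144 and 133).

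Outside the Hox genes, the lowest fitted values among depleted genes with at least 10 CPM in both other tissues belonged to Fitm1, Itgb6, Fbp2, Dpep1, Tspan8 and Cd300lg. Dpep1, a dipeptidase of the kidney brush border, was at 0.192, 0.243 and 0.0382 CPM in brain, 118, 94.5 and 136 in kidney and 22.4, 37.9 and 40.8 in gastrocnemius (-8.59 ± 0.43, adjusted p = 6.89e-08). Cd300lg, a receptor of capillary endothelium, was at 0, 0.284 and 0.191 CPM in brain, 34.3, 33.2 and 17.6 in kidney and 58.7, 71.4 and 78.6 in gastrocnemius (-8.10 ± 0.53, adjusted p = 4.66e-07). Brain lay far below both tissues for each.

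The reverse set was small. With at least 1 CPM in both kidney and gastrocnemius, 39 genes (0.16%) were missing from brain, having at most 3 counts in every brain library, and 52 without library 2. With 1 CPM in either tissue there were 588 (2.41%). Hox genes aside, those of highest level included Fitm1, a lipid droplet protein, which had 0, 0.0810 and 0 CPM in brain and 66.8 ± 22.2 in gastrocnemius. Itgb6, an epithelial integrin, was at 62.98 ± 7.95 CPM in kidney and 27.6 ± 11.8 in gastrocnemius. Dnase1 was at 749.5 ± 84.2 CPM in kidney, and Aqp7, a glycerol channel, at 13.7 ± 2.095 and 9.82 ± 2.196. Hist2h2aa1, a histone gene, had no count in brain but was at 0, 2.796 and 4.96 CPM in kidney and 79.1, 0 and 0 in gastrocnemius. It overlapped brain and did not pass the test against the mean (adjusted p = 0.0536).

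Gene size and position are given as medians and shares, with no test. The median length behind the FPKM of enriched genes was 5651.5 bases and median genomic span 36254.5 bases, against 3903.5 and 15636 for depleted genes and 5306 and 24303 for all tested genes. Brain-enriched genes made up 26.6% of tested genes on the X chromosome (153 of 576), 24.3% on chromosome 18 (115 of 474) and 11.2% on chromosome 19, against 16.0% overall. Chromosome 18 carries the clustered protocadherins, cell adhesion proteins that give neurons their surface identity, and without them its share was 15.6% (65 of 418).

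Each protocadherin cluster spreads its output over many members. All 13 tested Pcdha and all 21 tested Pcdhb genes were enriched, and 16 of 22 Pcdhg genes were. Pcdha genes summed to 58.5, 60.5 and 59.0 CPM in the brain libraries, Pcdhb genes to 116, 122 and 154.5 CPM and Pcdhg genes to 475, 503 and 557 CPM, against 42.5 ± 5.00 in kidney and 57.1 ± 17.9 in gastrocnemius. The median range of a member over the brain libraries was 0.42 on the log2 scale in Pcdha, 0.40 in Pcdhb and 0.64 in Pcdhg. Some Pcdhg members differed far more, and 3 of the 4 among the 10 enriched genes of largest range are given. Pcdhgb4 was at 143, 4.17 and 98.2 CPM, Pcdhgb8 at 58.5, 59.96 and 0.497 CPM and Pcdhga9 at 8.48, 8.51 and 156 CPM, so each was high in different libraries. Members of the Pcdha cluster share exons, as do those of Pcdhg, so how counts were divided between them is uncertain. The part of this in these differences was not tested. Over all enriched genes the median range was 0.44, against 0.32 for all tested genes.

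Of 28 genes linked to neurodegeneration 13 were called higher, 8 lower and 4 enriched (14.3%), with a median of 0.33. These counts were near the shares of all tested genes, 38.7% higher, 33.4% lower and 16.0% enriched. The enriched members included Uchl1, Trem2 and Apoe, the lipid carrier made by astrocytes (826, 654 and 699.5 CPM; 3.03 ± 0.27, adjusted p = 3.75e-06). App, the amyloid precursor, was at 1344, 1364 and 1277 CPM in brain and 967, 945 and 1104 in kidney, and was higher against the mean (1.66 ± 0.16, adjusted p = 6.50e-06). Park7, a protein that guards against oxidative stress, was at 45.5, 49.8 and 46.8 CPM in brain, 193, 127 and 165 in kidney and 357, 279.9 and 354 in gastrocnemius. Its brain libraries were below all others (-2.29 ± 0.17, adjusted p = 1.41e-06). Sod1, a superoxide dismutase, was likewise lower (-1.59 ± 0.22, adjusted p = 1.11e-04), as was Optn, an autophagy receptor (-1.92 ± 0.13, adjusted p = 4.97e-07). Optn was at 21.1, 18.1 and 20.8 CPM in brain, 19.7, 23.8 and 23.6 in kidney and 251, 264 and 252 in gastrocnemius, so brain overlapped kidney.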

How the data were processed

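Polyadenylated RNA of 3 old control libraries per tissue was compared. The deposited table gives raw counts per gene, and FPKM values that the authors computed from them, per the file headers and the labels. The genome build was GRCm38 per the submitters' processing notes. The labels and headers name no aligner, counter, annotation version or strand setting; each was not given in the sources used here. Of the 34745 rows, 27 symbols that a spreadsheet had turned into dates were restored by gene ID.

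Genes passing filterByExpr (minimum count 10, total 15; 17252 genes) were fitted with edgeR 4.0.16 (R 4.3.3) with TMM scaling and its quasi-likelihood test on the 9 libraries in 3 groups, and p was adjusted over all tested genes by the Benjamini-Hochberg method. A gene with few counts in both other tissues passed the filter only through brain. The shares of lists with many such genes are therefore partly fixed by the filter. The filter was run again for each fit that left out a library. CPM is counts per library total after TMM. The SE of a log2 fold change was derived as its absolute size divided by the square root of the test's F statistic. It is approximate, above all for genes with few or no counts in a tissue. Lower bounds of folds set a tissue with no count to 3 counts per library, which covers counting error only. Alternatives used DESeq2 1.42.0, limma 3.58.1, other scalings, filters and limits, a replicate term, and leaving out each library. Tables and plots were made with Python 3.11.15, pandas 2.3.3, numpy 2.4.6 and matplotlib 3.10.9.

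The comparison and the gene lists were chosen with earlier results of these data known, so the lists are described by counts and medians without a test. The rule for named genes took the 10 enriched genes of highest FPKM and of largest fold, the 10 depleted genes of lowest fold, the 10 enriched genes of largest range over the brain libraries, the 10 highest detected in brain alone or missing from brain, up to 4 members and 3 exceptions of each list, and all family members. Further list members were named after their values were seen. On simulated counts for 17252 genes with 200 changed, 97% of 4-fold and 100% of 8-fold changes were called, and 9 of the 206 calls were unchanged genes. The changed genes had a mean of at least 1 CPM, and kidney and gastrocnemius were given equal means. With so few genes changed, the simulation cannot show how calls depend on the scaling when most genes differ. Replicates differed by more than sampling noise (chi-square per degree of freedom from 22.6 to 137). Promoter windows were also searched for CAGCACC (in 7.09% of all windows), GGACAG (22.1%) and TATAAA (14.2%), but only 72.0% of enriched protein-coding genes had a window, under the 80% required, so that check was void.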

Additional observations from a re-analysis of the deposited data

How the results depend on the processing

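Direction and side of the threshold held for 5485 of the 5662 values computed for 299 named genes under the alternatives; 95 lost the call, 58 gained it and 24 changed sign, and 673 of 683 list medians kept their sign, though limma, whose pseudocount shrinks low genes, gave smaller medians for the neuronal and Hox lists. The causes were not tested. With library totals only, 3039 genes were lower and 361 depleted, and with limma on log2(FPKM + 0.1) 3772 were lower and 219 depleted. With limma on log2(FPKM + 1), 1651 were enriched and 82 depleted. Depleted genes numbered 2071 at a log2 limit of 1, 339 at a limit of 3 and 1390 by glmTreat. Genes in brain alone numbered 252 at 0 counts, 1182 at up to 10 counts and 320 at a level of at least 5 CPM. Genes missing from brain numbered 20 at 0 counts, 124 at up to 10, 86 at 0.5 CPM and 11 at 5 CPM. Leaving out each library gave 6227 to 7091 genes higher, 5387 to 5817 lower, 2772 to 2967 enriched, 749 to 871 depleted, 655 to 769 in brain alone and 35 to 52 missing. The fits among these ran the filter again, so the genes tested differed.

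The median of the endothelium list became 0.672, 0.062 and 0.513 with library totals, limma on log2(FPKM + 1) and limma on log2(FPKM + 0.1). In that order Pkm was at 0.438, 0.444 and 0.447, Ank3 at 0.7, 0.565 and 0.696, Dnm2 at 0.133, 0.112 and 0.135, Actn4 at 0.045, 0.018 and 0.054, Gphn at 0.495, 0.469 and 0.49, Car8 at 0.027, 0.028 and 0.061, and Crtc2 at 0.004, 0.01 and 0.016. Ryr1 was at 0.654 with library totals, and Nphs1 at -0.742 and -0.539 with limma. The midbrain and hindbrain median, on 8 tested genes in the main fit, was 1.57 without a filter. It ran from -0.859 (without brain library 2) to 1.131 (without brain library 3) when a library was left out. The members tested may differ between these fits, because the filter was dropped or run again.

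The labels number replicates alike in each tissue but do not say whether same-numbered libraries came from the same mouse. Residuals of same-numbered libraries correlated by 0.0192 to 0.0916, and those of other pairs across tissues by -0.0875 to 0.0311. Such small values cannot decide whether the libraries are paired. Each of the 9 libraries correlated best with a library of its own number, which is a hint from the data and not from the design. With a replicate block 6624 genes were higher and 5681 lower, 2758 enriched and 792 depleted. Depth of 17504652 to 22146406 counts limits the genes near the floor of 3 counts.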
